A study of Mus musculus with 5 samples.

Results

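Interferon-stimulated genes of the mouse aorta were read as a list of 34 genes, of which 32 could be measured, among 18194 named genes on the array. The list holds genes known as targets of interferon. Each gene was taken from the probe set (a group of short probes for the 3′ part of 1 transcript) that the array's annotation gives to that gene alone and that had the highest mean over the 5 arrays. The 32 genes had 50 such probe sets, 1 each for 21 genes and more for 11. Isg15, which codes for a ubiquitin-like protein, had only a probe set that is shared with another gene and was not analysed here. No probe set of the annotation table used here names Ifi44, a cytoplasmic antiviral protein, and it was not analysed either.

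RNA from whole thoracic aorta of male C57BL/6 mice was hybridised to Affymetrix Mouse Genome 430 2.0 arrays. The 3 P467L arrays held RNA of mice with a transgene for P467L, a dominant negative mutant of human PPARγ, driven by the smooth muscle myosin heavy chain promoter, so that the mutant acts in smooth muscle while the mouse's own Pparg stays in place. The 2 non-transgenic arrays held RNA of their littermates, and each of the 5 arrays was an independent pool of 6 to 8 aortas. The age of the mice, the transgenic line and any other agent are not given in the sources used here. The design asks which transcripts of the vessel differ when PPARγ, a nuclear receptor that binds fatty acids and restrains inflammatory gene expression, is blocked in its muscle layer. Values are log2 expression, and a difference is always the P467L mean minus the non-transgenic mean.

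Interferons are secreted when a cell senses foreign nucleic acid or, for interferon gamma, when lymphocytes are activated. Their receptors activate JAK kinases and STAT proteins. A complex that holds STAT2 and IRF9 then binds the interferon-stimulated response element (ISRE) of target promoters, and interferon gamma acts largely through the gamma-activated sequence (GAS). The target genes code for sensors, for transcription factors that amplify the response, for antiviral effectors and for parts of antigen presentation. Most cells of the vessel wall, smooth muscle included, can respond, and many of these genes keep a basal level without infection.

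No interferon-stimulated gene passed the test for a difference between genotypes, and values of both signs occurred in the family. The most distant value was that of Rsad2, whose mean in P467L aortas was 0.82 log2 units below that of littermates (SE 0.29, 3 against 2 arrays). The opposite sign was measured for Parp14 (0.44, SE 0.11), Psmb8 (0.31, SE 0.12), Parp9 (0.29, SE 0.06), Oasl2 (0.28, SE 0.09) and Bst2 (0.26, SE 0.08). The members with the smallest differences were Ifit3, Oas3, Stat2 and Cxcl10, between -0.02 and 0.00. Another scaling of the arrays turned the sign of Ifit3, Oas3 and Cxcl10.

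The promoters of 6 members are printed here because they show the elements through which interferon acts, in the member with the lowest difference (Rsad2), in members with higher P467L values (Bst2, Psmb8), in a member without a difference (Ifit3) and in members that varied between P467L arrays (Ifit1, Gbp3). Each stretch is the 200 bases before the RefSeq transcript start (GRCm38.p6), written 5′ to 3′ on the gene's strand. Capitals mark matches to the ISRE letters (GAAA, any 2 bases, GAAA) or the GAS letters (TTCNNNGAA) on either strand, and a position gives the first base of a match, with -1 just before the start.
Rsad2 (chr12:26456453-26456652, minus strand; ISRE at -120): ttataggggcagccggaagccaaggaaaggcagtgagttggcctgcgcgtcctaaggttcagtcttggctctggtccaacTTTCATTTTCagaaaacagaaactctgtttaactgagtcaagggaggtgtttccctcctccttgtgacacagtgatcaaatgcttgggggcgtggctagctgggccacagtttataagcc
Bst2 (chr8:71537473-71537672, minus strand; ISRE at -130 and -124, GAS at -136): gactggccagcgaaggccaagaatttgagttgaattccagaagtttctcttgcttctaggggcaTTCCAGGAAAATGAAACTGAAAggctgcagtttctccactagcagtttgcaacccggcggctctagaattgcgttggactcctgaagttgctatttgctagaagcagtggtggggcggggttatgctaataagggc
Ifit1 (chr19:34640689-34640888, plus strand; ISRE at -104 and -85): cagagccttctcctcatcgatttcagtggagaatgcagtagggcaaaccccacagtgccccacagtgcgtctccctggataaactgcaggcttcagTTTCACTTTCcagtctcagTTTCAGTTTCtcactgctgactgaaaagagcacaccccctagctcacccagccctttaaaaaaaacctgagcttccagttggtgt
Ifit3 (chr19:34583329-34583528, plus strand; ISRE at -156 and -122): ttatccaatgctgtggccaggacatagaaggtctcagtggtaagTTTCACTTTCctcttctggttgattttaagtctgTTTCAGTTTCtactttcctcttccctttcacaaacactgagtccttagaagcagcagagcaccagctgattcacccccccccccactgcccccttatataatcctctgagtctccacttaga
Gbp3 (chr3:142559844-142560043, plus strand; ISRE at -45 and -39): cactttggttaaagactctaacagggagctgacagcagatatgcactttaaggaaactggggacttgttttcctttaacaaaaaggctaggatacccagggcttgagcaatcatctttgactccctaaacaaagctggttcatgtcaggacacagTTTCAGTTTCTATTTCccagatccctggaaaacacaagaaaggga
Psmb8 (chr17:34197995-34198194, plus strand; GAS at -97): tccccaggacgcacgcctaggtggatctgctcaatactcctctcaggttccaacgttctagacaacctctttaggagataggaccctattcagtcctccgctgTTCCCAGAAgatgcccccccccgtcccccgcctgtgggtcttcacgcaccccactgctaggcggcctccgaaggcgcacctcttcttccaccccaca

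Rsad2 and Ifit3 both carry ISRE letters close to the start, and their differences between genotypes were -0.82 and -0.02. In Bst2 the ISRE and GAS matches overlap. In Gbp3 the matches at -45 and -39 overlap as well. RefSeq promoter windows, from 250 bases before to 50 after the start, were found for 25 of the 32 measured members, 29 windows in all. Counting a gene once if any of its windows had a match, the ISRE letters were in 13 of 25 members (52%), against 3.99% of 27025 genes (3.44% of 32851 promoters). The GAS letters were in 7 of 25 (28%), against 9.55% of genes (8.3% of promoters). A PPARγ response element, searched on both strands as 2 copies of AGGTCA with any 1 base between them, was in 0 of 25 members, and in 0.0481% of genes (0.0396% of promoters). These are matches of letters and show no binding.

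Differences of either sign were found in members with and without ISRE letters. Of the 13 with a match, 8 measured higher in P467L aortas, 4 lower and 1, Stat2, at 0.00 after rounding, with a median difference of 0.06 and a range from -0.82 to 0.27. Of the 12 without a match in the window, 10 measured higher and 2 lower, with a median of 0.10 and a range from -0.18 to 0.31. The 7 members with GAS letters, Irf1, Bst2 and Psmb8 among them, had a median of 0.12. The difference between these groups was not tested.

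Single arrays stood apart in transcripts outside the family. The correlations of P467L replicate 1 with each other array were 0.985 to 0.991, where pairs without it reached 0.997, and its value of Malat1, a nuclear noncoding RNA, was 8.03 against 9.45 to 9.87. Non-transgenic replicate 2 had a mean of 11.34 over 7 stomach transcripts, against 8.29 to 9.0 elsewhere. The smooth muscle genes Acta2 (14.79 to 14.83) and Myh11 mark the labelled tissue and were near the top of the scale on every array. P-values measure the spread between these pools only.

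In the limma fit over the whole table, with Benjamini-Hochberg adjustment, 0 of 45037 probe sets (0%) had an adjusted p under 0.05, and so did 0 of the 32 members. The smallest adjusted p of a member was 0.460, for Parp9. At an unadjusted p under 0.05 there were 4 members with higher values in P467L aortas (Parp9, Parp14, Bst2 and Oasl2), where 6.94% of all named genes were called in that direction, and 1 with lower values (Rsad2), where 2.51% were. This count of 5 is sensitive to single arrays. Leaving out non-transgenic replicate 1 gave 1 such member, Ddx58, and none of the 5 passed; leaving out P467L replicate 2 gave 3, and leaving out P467L replicate 3 gave 8. Without both arrays that stood apart (P467L replicate 1 and non-transgenic replicate 2), as without non-transgenic replicate 1, only 1 littermate array remains. Counts from such a fit are not read as a result about the members. Of all named genes at that unadjusted threshold 73.4% were higher in P467L aortas, and 84.6% after each array was centred on its median. With 1 P467L array left out, 829 to 1652 of the 18194 named genes were higher at that threshold and 266 to 814 lower.

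All P467L arrays lay above both non-transgenic arrays in 9 members (Parp9, Parp14, Bst2, Oasl2, Psmb8, Ifi35, Dhx58, Ddx58 and Xaf1), and 16.1% of all named genes did so. They lay below in 2 members (Rsad2 and Oas2), and 6.55% of all named genes did so. In the remaining 21 members the groups overlapped. By sign alone, with Stat2 (0.00 after rounding) counted as higher, 24 members measured higher and 8 lower. That is 75.0% higher, against 56.0% of all named genes. Without non-transgenic replicate 1 these shares were 62.5% and 57.2%. Leaving out any other single array gave 71.9% to 78.1% of members, against 49.4% to 59.5% of all named genes. Without both arrays that stood apart the shares were 78.1% and 46.3%. The median difference was 0.10 with quartiles of 0.00 and 0.20, against 0.02 with quartiles of -0.05 and 0.10 over all named genes. Without non-transgenic replicate 1 the members' median was 0.05, against 0.02 for all named genes. Without both arrays that stood apart these medians were 0.12 and -0.0. In 23 members the difference was under 0.2 in size, and only Rsad2 exceeded 0.5. When each array was left out in turn, 7 members (Rsad2, Dhx58, Ifi35, Bst2, Parp9, Parp14 and Psmb8) kept their sign and stayed within 1.5 times their difference, and the other 25 did not.

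**Figure D1:**
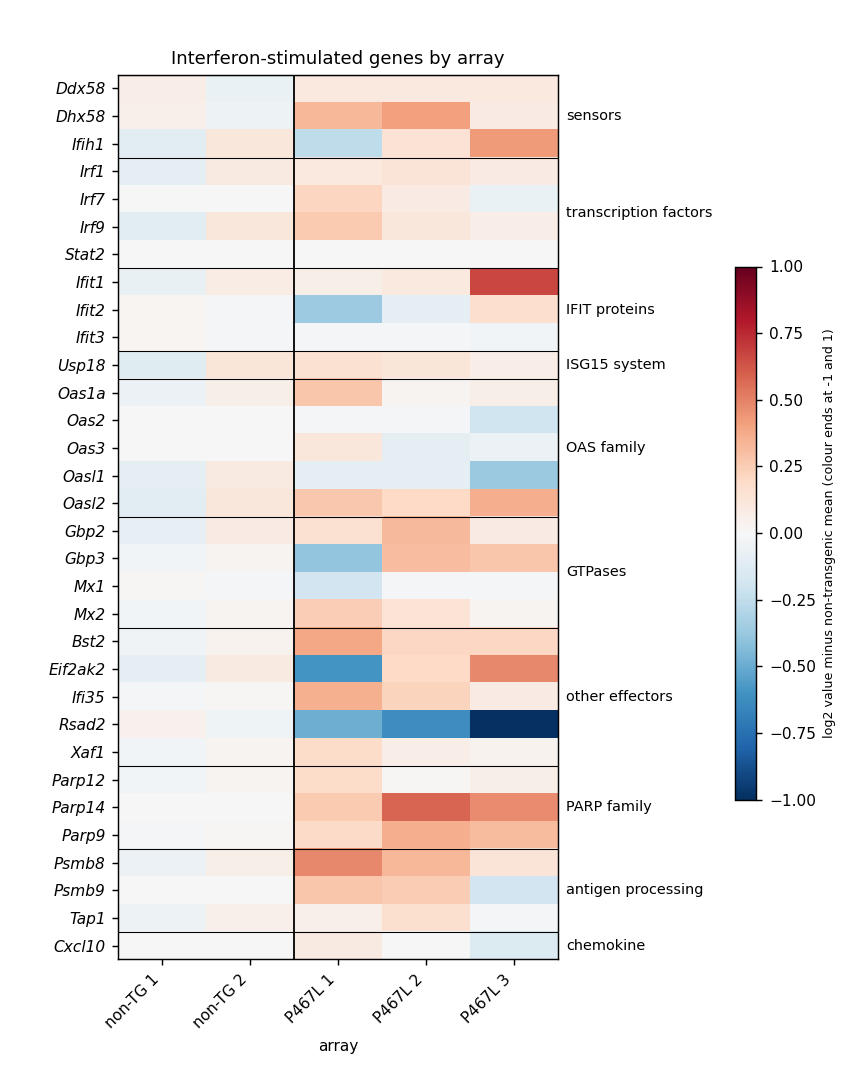
Each square is the log2 value of 1 interferon-stimulated gene on 1 array minus the mean of both non-transgenic arrays, with genes grouped by role and the P467L arrays right of the line; colours end at -1 and 1. Rsad2 is blue on all 3 P467L arrays, Parp14 and Parp9 are red on all 3, and Eif2ak2 is blue on P467L replicate 1 and red on P467L replicate 3.

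**Figure D2:**
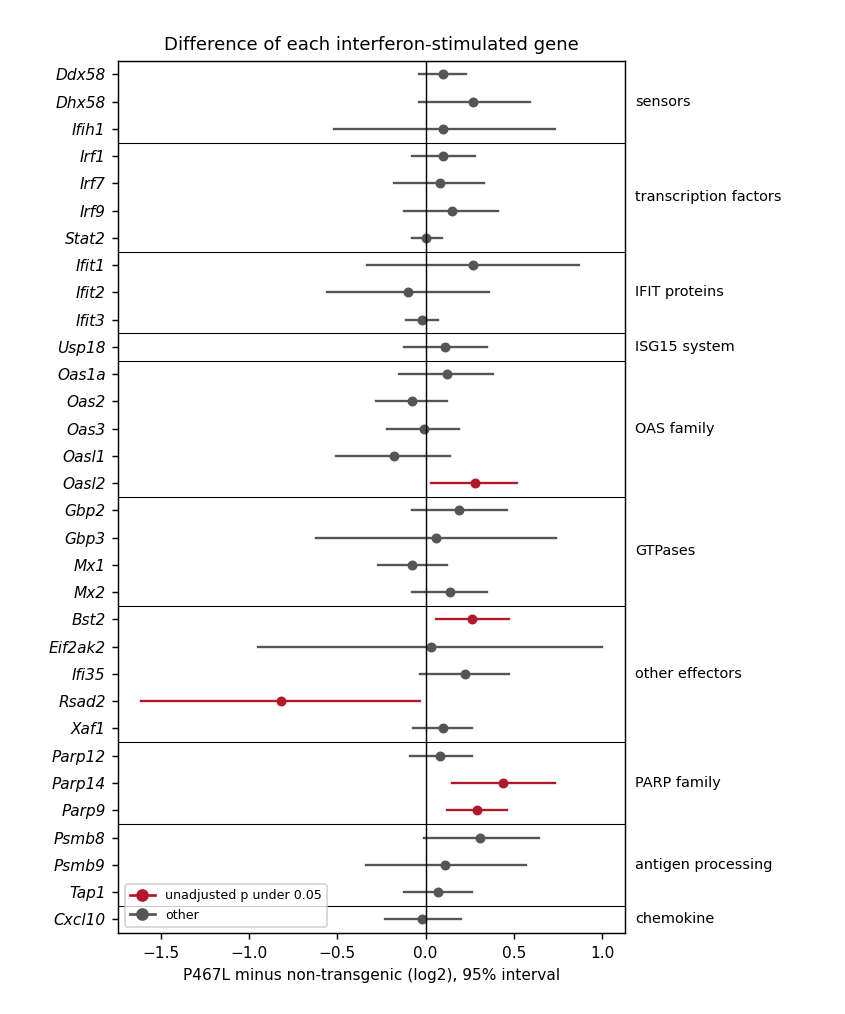
Points are the differences in log2 expression, P467L minus non-transgenic, of the 32 measured genes, with the 95% interval of the limma fit as a line; red marks an unadjusted p under 0.05. The intervals of Rsad2, Parp14, Parp9, Bst2 and Oasl2 leave out 0, and that of Eif2ak2 runs from -0.95 to 1.00.

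Rsad2 codes for viperin, a radical SAM enzyme that makes a chain-terminating nucleotide and blocks the replication of many viruses. Littermate arrays 1 and 2 measured 9.73 and 9.65, and P467L arrays 1 to 3 measured 9.20, 9.07 and 8.35. Every P467L array was below both littermate arrays, and replicate 3 was far below the other two. The difference of -0.82 is 1.76-fold lower, with a 95% interval from -1.61 to -0.03 and a limma adjusted p of 0.650. Both further Rsad2 probe sets had the same sign. They measured 8.08 and 8.07 against 7.71, 7.48 and 6.77 (difference -0.76), and 7.58 and 7.64 against 7.48, 7.03 and 6.32 (difference -0.67). The order of the 3 P467L arrays was the same in all 3 probe sets. Without P467L replicate 3 the difference was -0.56, and without P467L replicate 1 it was -0.98. Its unadjusted p was above 0.05 when either non-transgenic array or P467L replicate 2 was left out.

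The neighbour of Rsad2 on chromosome 12 is Cmpk2, a nucleotide kinase that interferon also induces and that is read from the other strand. It is no member but belongs to the list of further interferon targets counted below. As a neighbour it was looked up after the Rsad2 values were seen. Cmpk2 measured 6.85 and 6.93 in littermates and 7.31, 7.08 and 7.14 in P467L aortas. Its sign was thus opposite to that of Rsad2, with no overlap between the groups. The difference was 0.29 (SE 0.08, limma adjusted p 0.561), and a second probe set gave 0.17 with overlapping groups. Rnf144a, on the far side of Rsad2, had a difference of -0.24, with every P467L array below both littermate arrays.

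**Figure D3:**
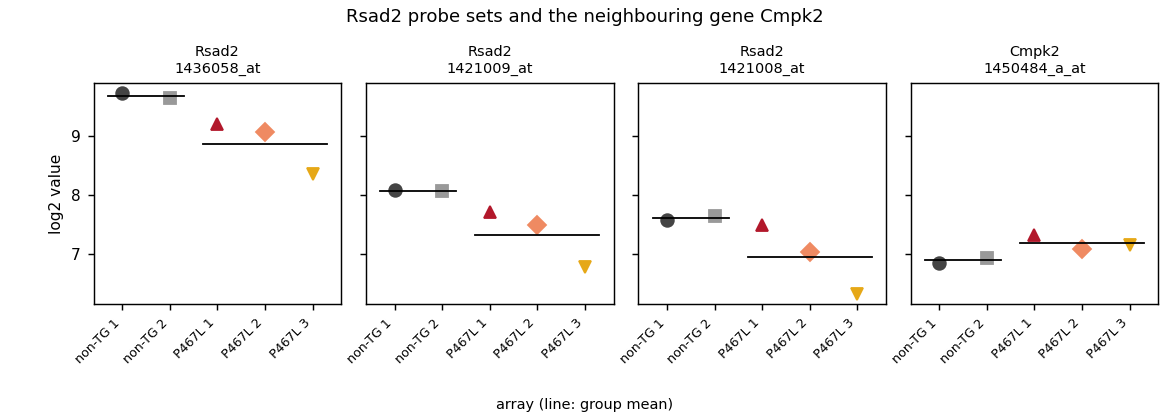
Log2 values of the 3 Rsad2 probe sets and the brighter Cmpk2 probe set on each array, with a line at each group mean. In every Rsad2 panel P467L replicate 3 is lowest, and in the Cmpk2 panel all 3 P467L arrays (7.08 to 7.31) are above both non-transgenic arrays (6.85 and 6.93).

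The PARP members add ADP-ribose to proteins, and Parp9 and Parp14 lie in 1 gene cluster on chromosome 16. Parp14, a mono-ADP-ribosyltransferase that modulates STAT signalling in macrophages, measured 7.46 and 7.45 in littermates and 7.72, 8.04 and 7.93 in P467L aortas. Parp9, which acts with the ubiquitin ligase DTX3L, measured 8.42 and 8.45 against 8.63, 8.80 and 8.75. In both genes every P467L array was above both littermate arrays, and P467L replicate 1 was the lowest of the 3. Their 95% intervals were 0.15 to 0.73 (Parp14) and 0.12 to 0.46 (Parp9), with limma adjusted p of 0.493 and 0.460. Both passed the adjusted threshold only with array weights, a fit that gave P467L replicate 2 a weight of 34.0612 and no other array one above 0.9012. A dim second probe set of Parp14 had a difference of 0.11, and the mean over both was 0.28. Parp12, on another chromosome, measured 8.92 and 8.97 against 8.96 to 9.13 (difference 0.08), with overlapping groups.

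Dtx3l lies between Parp14 and Parp9 and was also looked up after their values were seen. It measured 8.31 and 8.24 in littermates and 8.84, 8.75 and 8.70 in P467L aortas, again without overlap. The difference was 0.49 (SE 0.06, 95% interval 0.33 to 0.65, limma adjusted p 0.249). The genes that flank the 3 had smaller differences, of -0.05 for Hspbap1 and 0.11 for Kpna1, and their groups overlapped.

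Among the other effectors, Bst2 codes for tetherin, a membrane protein that holds budding virus on the cell surface. It measured 8.33 and 8.40 in littermates and 8.75, 8.57 and 8.57 in P467L aortas. The P467L arrays were all higher, with replicate 1 highest (95% interval 0.06 to 0.47, limma adjusted p 0.549). Ifi35, an interferon-induced leucine zipper protein, measured 10.58 and 10.61 against 10.95, 10.82 and 10.68. It too was higher on every P467L array, with a difference of 0.22 (SE 0.09). Its other probe sets gave 0.11 and 0.03. Xaf1, a proapoptotic factor, measured 8.60 and 8.65 against 8.81, 8.69 and 8.66, and the nearest arrays of the groups were 0.01 apart.

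Eif2ak2 codes for PKR, the kinase that stops translation when it binds double-stranded RNA. It measured 6.67 and 6.85 in littermates and 6.16, 6.96 and 7.24 in P467L aortas. P467L arrays were thus both the lowest and the highest of the 5, and the mean difference of 0.03 had the largest SE of all members, 0.36. Without P467L replicate 1 the difference was 0.34, and without P467L replicate 3 it was -0.20.

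Oligoadenylate synthetases make the messenger that activates RNase L. Oasl2 measured 6.88 and 7.10 in littermates and 7.26, 7.19 and 7.35 in P467L aortas. All P467L arrays were higher, although the littermate arrays were themselves 0.22 apart (95% interval 0.03 to 0.52, limma adjusted p 0.615). Without non-transgenic replicate 1 the difference of 0.28 was 0.17. Oasl1, its neighbour on chromosome 5, which restrains translation of Irf7, measured 6.26 and 6.44 against 6.26, 6.26 and 5.98. Its difference was -0.18 (SE 0.12), opposite in sign to Oasl2, and the groups met at 6.26. Oas2 measured 6.55 in both littermate arrays and 6.53, 6.53 and 6.35 in P467L aortas, so the groups did not overlap but were only 0.02 apart at the nearest. Oas1a had a difference of 0.12 and Oas3 one of -0.01, both with overlap.

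The IFIT proteins bind viral RNA that lacks the host cap and are among the transcripts that interferon induces most. Ifit1 measured 5.21 and 5.36 in littermates and 5.34, 5.38 and 5.95 in P467L aortas. Its difference of 0.27 (SE 0.22) came with 1 high array, P467L replicate 3, and was 0.08 without it. Ifit2 measured 8.44 and 8.40 against 8.06, 8.32 and 8.59, so P467L arrays were again on both sides. Ifit3 measured 8.49 and 8.45 against 8.45, 8.45 and 8.44, with a difference of -0.02 (95% interval -0.11 to 0.07). Usp18, which removes ISG15 from proteins and damps receptor signalling, measured 5.61 and 5.85 against 5.88, 5.85 and 5.80 (difference 0.11). The value 5.85 occurred in both groups.

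Interferon-induced GTPases act on viral particles (Mx proteins) and on the membranes around pathogens (guanylate-binding proteins). Gbp2 measured 9.22 and 9.39 in littermates and 9.46, 9.63 and 9.39 in P467L aortas (difference 0.19, SE 0.10). The groups touched at 9.39. Gbp3 measured 7.40 and 7.45 against 7.03, 7.73 and 7.70, with P467L replicate 1 lowest and the other P467L arrays highest. Its difference was 0.06, and 0.29 without P467L replicate 1. Mx1 and Mx2 were dim, at 5.37 to 5.58 and 5.74 to 6.01, with differences of -0.08 and 0.14 and overlapping groups.

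The sensors detect viral RNA in the cytoplasm and signal through MAVS. Dhx58 (LGP2), a regulator of the other sensors, measured 5.68 and 5.58 in littermates and 5.96, 6.04 and 5.71 in P467L aortas. All P467L arrays were higher, by 0.03 at the nearest, and the difference was 0.27 (SE 0.12). Its other, dimmer probe sets gave 0.05 and 0.00. Ddx58 (RIG-I) measured 8.75 and 8.62 against 8.78 on each P467L array (difference 0.10, SE 0.05). A dimmer probe set of it measured 6.65 and 6.72 against 7.02, 6.80 and 7.02, again with every P467L array higher (difference 0.26, SE 0.09, limma adjusted p 0.624), and the dimmest gave 0.06. Ties at the 2 deposited decimals are common in this table: 6 of 32 members (18.8%) and 23.0% of all named genes had at least 3 arrays at 1 value. Ifih1 (MDA5) measured 7.09 and 7.32 against 6.95, 7.35 and 7.63, with P467L arrays at both ends.

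The transcription factors of the pathway differed little. Irf9, the DNA-binding subunit of the ISRE complex, measured 7.54 and 7.76 in littermates and 7.91, 7.76 and 7.72 in P467L aortas (difference 0.15, SE 0.10). The difference was 0.04 without non-transgenic replicate 1 and 0.26 without non-transgenic replicate 2. Its partner Stat2 was at 6.69 or 6.70 on all 5 arrays. Irf1, a target of the GAS pathway, had a difference of 0.10 (95% interval -0.08 to 0.28), which was 0.01 and 0.19 without those arrays. Irf7, which amplifies interferon production, had one of 0.08 (-0.18 to 0.33). In all 4 genes the groups overlapped.

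Psmb8, Psmb9 and Tap1 lie side by side in the class II region of the MHC on chromosome 17 and prepare peptides for class I molecules. Psmb8, a subunit of the immunoproteasome, measured 8.18 and 8.30 in littermates and 8.72, 8.57 and 8.37 in P467L aortas. Every P467L array was higher (95% interval -0.01 to 0.64, limma adjusted p 0.696). Psmb9, another immunoproteasome subunit, measured 7.96 on both littermate arrays, against 8.24, 8.21 and 7.77, so P467L replicate 3 was the lowest array. Tap1, a subunit of the peptide transporter, measured 7.55 and 7.65 against 7.65, 7.76 and 7.59 (difference 0.07). In each of the 3 genes P467L replicate 3 was the lowest P467L array. Cxcl10, a chemokine for activated T cells, was dim, at 5.83 to 6.06, with a difference of -0.02.

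Additional probe sets mostly had the sign of the brightest one. Of 18 such probe sets, 12 had the same sign, 4 the opposite (1 of Tap1, 2 of Eif2ak2 and 1 of Xaf1), and in 2 cases 1 of the values was 0.00. Probe sets of a gene share its RNA and are no replicates. The mean level of 25 of the 32 members was above the median of all probe sets, 6.23, and dimmer ones such as Ifit1, Mx1, Dhx58 and Cxcl10 are below it.

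The members differed in which array was extreme. Their median deviation from the non-transgenic mean was -0.025 and 0.025 in littermates and 0.130, 0.115 and 0.070 in P467L replicates 1 to 3. Over all named genes these medians were 0.0, 0.0, 0.055, 0.005 and 0.0. Non-transgenic replicate 1 was the single lowest array in 16 of 32 members (50.0%), against 17.4% of all named genes. P467L replicate 1 was the single highest in 13 members (40.6%), close to the 44.2% of all named genes, and the single lowest in 5 (Ifit2, Mx1, Ifih1, Gbp3 and Eif2ak2), which is 15.6% against 14.5% of all named genes.

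Other genes of the interferon pathway were read from lists drawn up by function, 98 of 110 listed genes being measured, and 0 passed the adjusted threshold. The counts at an unadjusted p under 0.05 stand beside 6.94% of all named genes in the higher and 2.51% in the lower direction. Counts by sign stand beside 56.0% of all named genes with higher values. Interferons and their receptors, with 5 higher and 6 lower values, had 1 of 11 at that threshold, Ifngr2, a chain of the interferon gamma receptor, at 0.33 (SE 0.08). Ifnb1 (4.98 to 5.12) and Ifng (3.74 to 3.97) were dim on every array, with differences of -0.05 and -0.11. Kinases and transcription factors, all 9 higher before rounding, had 2 of 9, Irf2 at 0.28 and Irf3 at 0.11. Tyk2 at 0.00 and Stat3 at 0.01 are among those counted as higher. Sensing genes, 10 higher and 2 lower, had 2 of 13, the adaptor Mavs at 0.26 and the ubiquitin ligase Trim25 at 0.15. Negative regulators, 6 higher and 4 lower, had 0 of 10, with Pias1, a SUMO ligase, at 0.28 (SE 0.12) closest.

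Of 36 further interferon targets 23 measured higher and 13 lower, and at that threshold 6 were higher (6.94% of all named genes) and 1 lower (2.51%). Cd274 codes for PD-L1, an inhibitory ligand for T cells. It measured 6.48 and 6.45 in littermates and 7.44, 7.43 and 7.14 in P467L aortas, a difference of 0.87 (SE 0.11, limma adjusted p 0.273). Lgals3bp, a secreted galectin ligand, measured 8.76 and 8.87 against 9.70, 9.44 and 9.35 (difference 0.68, limma adjusted p 0.392). Both differences were larger than that of any member with higher values, and neither gene's groups overlapped. Oas1b, a flavivirus resistance gene, had a difference of -0.17.

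Antigen presentation genes beyond the members were 12 of class I and 7 of class II. In class I, 10 measured higher and 1 had an unadjusted p under 0.05, Tap2, the partner of Tap1, at 0.32 (SE 0.11). In class II, 7 of 7 measured higher and 2 had such a p, H2-Ab1 at 0.38 (SE 0.12) and Cd74, the invariant chain, at 0.30 (SE 0.11). Class II genes are expressed mostly in macrophages, dendritic cells and B cells. In whole vessels, a change in the number of cells of a type and a change in RNA per cell cannot be told apart.

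Macrophage markers also measured higher in P467L aortas. Of 15 markers 15 measured higher, with a median difference of 0.20, and 0 passed the adjusted threshold. Their mean level was 8.66 to 8.70 in littermates and 8.71 to 9.04 in P467L aortas, highest on P467L replicate 1. That array was the single highest in 13 of 32 members (40.6%), Bst2, Psmb8 and Ifi35 among them, and in 44.2% of all named genes. P467L replicate 2, with a macrophage level of 8.71, was the single highest in 7 members (21.9%), Parp14, Parp9 and Dhx58 among them. The share of all named genes was 8.32%. P467L replicate 3, with a macrophage level of 8.91, was the single highest in 5 members (15.6%), against 16.6% of all named genes. Markers of B cells, T and NK cells and dendritic cells had the opposite sign, 18 of 18 measuring lower. B cell markers had a mean level of 6.40 to 6.54 in littermates and 6.01 to 6.38 in P467L aortas. T and NK cell markers were at 5.96 to 6.02 against 5.72 to 6.01, and dendritic cell markers at 5.57 to 5.64 against 5.39 to 5.51. These lymphoid and dendritic levels were near or below the median of all probe sets, 6.23. Single values went down to 5.09 for B cell, 4.54 for T and NK cell and 4.19 for dendritic cell markers. The lowest value of the whole table was 3.03. The 18 lower values include very small differences of dim genes, such as -0.01 for Ncr1. On P467L replicate 3, where Rsad2 was lowest, the neutrophil genes S100a8 and S100a9 were highest (9.24 and 8.96), while Csf3r, the remaining one of 3, was not. The red cell genes Alas2 and Slc4a1 were lowest there (10.62 and 6.92), while Hba-a1, the remaining one of 3, was not. The part of these cell types in the members' values was not tested.

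Of the marker genes with the smallest p in each list, C1qb (0.36) and Laptm5 (0.25) were macrophage genes with higher values, and Cd22 (-0.28), Cd4 (-0.16) and Ccr9 (-0.25) were lymphoid or dendritic genes with lower values. Wall cells had markers of either sign. In endothelium Emcn was at -1.05, Cldn5 at 0.73 and Nos3 at 0.46, in smooth muscle Des was at 0.80 and Smtn at 0.16, and in fibroblasts Lum was at 0.24 and Col1a1 at 0.16. In the remaining lists the smallest p belonged to Csf3r (-0.06), Fabp4 (-0.59, adipocytes), Chia1 (-3.10, stomach), Alas2 (-0.56) and Neat1 (-0.28, nuclear RNA).

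**Figure D4:**
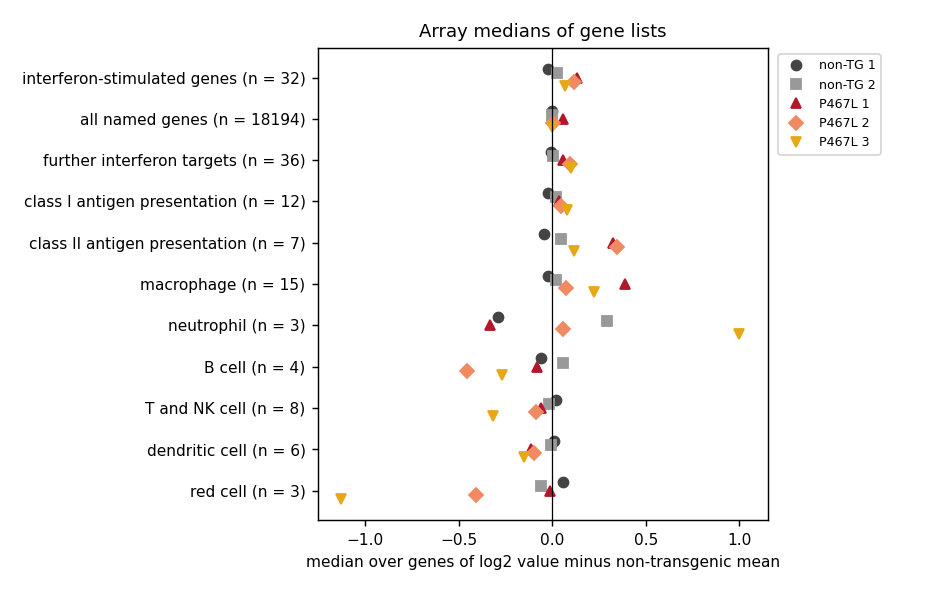
For each gene list, points give the median over its genes of the log2 value on an array minus the non-transgenic mean, 1 symbol per array, with the number of measured genes in brackets. Interferon-stimulated genes lie within 0.130 of 0 on every array, macrophage markers reach 0.39 on P467L replicate 1, and red cell markers reach -1.13 on P467L replicate 3.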

How the data were processed

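The 5 arrays were compared by genotype, as the labels give it. The submitters' processing notes name RMA and Affymetrix Power Tools, with versions not given in the sources used here, and the deposited values are log2 expression. By design RMA subtracts background and gives the probes of every array 1 distribution before they are joined into probe sets. A shift shared by most transcripts is thereby largely lost. The probe set values kept small offsets, with medians of 6.25 on both littermate arrays and 6.17, 6.23 and 6.23 on P467L replicates 1 to 3. The 45037 probe sets other than 64 controls were fitted with limma 3.58.1 in R 4.3.3 (lmFit, eBayes, two-sided, Benjamini-Hochberg over all of them). The fit was tested first on simulated data, whose changes were all larger than any member's difference. That test does not show how well differences of the measured size are found. Probe sets were named from a platform table of 2016, with symbols updated through NCBI gene numbers and the GRCm38.p6 gene table: 34945 had 1 gene, 932 several and 9160 none. Promoters are RefSeq's for GRCm38.p6. The members and lists were chosen with earlier results of these data known. All members are named, with genes of other lists by smallest p where the unadjusted p was under 0.05 and groups did not overlap, up to 3 per list, or else 1. Malat1, Ifnb1, Ifng, Acta2, Myh11, S100a8, S100a9, Slc4a1, Hba-a1 and the neighbours Dtx3l, Hspbap1, Kpna1, Cmpk2 and Rnf144a were named after their values were seen. Alternatives covered scaling, dim probe sets, the variance model, array weights, a replicate block, the threshold, the probe sets of a gene and leaving out arrays. No batch or scan date is given in the sources used here.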

Additional observations from a re-analysis of the deposited data

How the results depend on the processing

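No member passed the adjusted threshold of 0.05 under any alternative other than array weights, which called 2 (Parp9 and Parp14). At an unadjusted p under 0.05 that fit had 13 of 32 members, 12 higher and 1 lower. Of 18194 named genes it had 3489 higher and 2218 lower at that threshold. In that fit P467L replicate 2 had a weight of 34.0612 and no other array one above 0.9012. Probe sets called over the whole table, 0 as reported, were 2245 with array weights, 15 with each array centred on its median, 10 with 1 probe set per gene, 17 at an adjusted threshold of 0.10 and 78 at 0.20. Leaving out 1 P467L array at a time gave 3 to 8 members at an unadjusted p under 0.05, beside 829 to 1652 named genes higher and 266 to 814 lower. Leaving out any 1 array gave 12 to 23 members whose groups do not overlap and a median difference of 0.05 to 0.12. The count without overlap grows by construction, since fewer arrays can overlap. It was 27 without both arrays that stood apart, an alternative chosen after seeing the data. The share of all named genes without overlap in these settings is not given here. Centring moved the median difference of members from 0.10 to 0.14 and that of all named genes from 0.02 to 0.06. The share with higher values became 84.4% of members and 70.8% of all named genes. With the replicate number as a replicate block 0 members passed the adjusted threshold, 6 had an unadjusted p under 0.05 and the median was 0.11. Of 18194 named genes the block fit had 1447 higher and 448 lower at that unadjusted p. The labels do not say that the replicate numbers mark shared animals or days. Same-numbered arrays' deviations correlated at 0.11 and 0.01, so the replicate numbers were not read as pairs.

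The sign turned in 8 of 32 members under at least 1 alternative, and Stat2, at 0.00 as reported, had no sign without non-transgenic replicate 1. It turned for Ifit3 (0.02), Oas3 (0.03) and Cxcl10 (0.02) with centring, and for Oas3 (0.04) and Cxcl10 (0.03) with a second quantile normalization. With the replicate block it turned for Oas3 (0.01), Cxcl10 (0.04), Ifih1 (-0.06), Gbp3 (-0.04) and Eif2ak2 (-0.20), and without both arrays that stood apart for Ifit2 (0.02). Leaving out 1 array gave ranges of -0.01 to 0.23 for Usp18, -0.06 to 0.28 for Ifih1, -0.20 to 0.34 for Eif2ak2, -0.23 to 0.04 for Ifit2, -0.08 to 0.02 for Oas3, -0.06 to 0.29 for Gbp3 and -0.07 to 0.04 for Cxcl10. The cause of these changes was not tested. With 2 against 3 arrays the median SE of a member was 0.091, and dim members are limited by signal over background.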

Other observations

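Isg20, an exonuclease that interferon induces and that is no member, had the same order of P467L arrays as Rsad2. It measured 9.66 and 9.56 in littermates and 9.58, 9.29 and 8.84 in P467L replicates 1 to 3, with overlapping groups and a difference of -0.37 (SE 0.24, limma adjusted p 0.784). It was singled out after its values were seen.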
